A study of Arabidopsis thaliana with 12 samples.

Results

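CSLA01 (AT4G16590), a mannan synthase gene, and the glycosyl hydrolase family 9 (GH9) genes GH9B8 (AT2G32990), GH9B11 (AT2G44560), GH9B12 (AT2G44570) and GH9B16 (AT4G38990) were measured in Arabidopsis thaliana cell culture after cytokinin and after water. These 5 genes are those of the 692 array features with exactly 1 gene name that are CSLA01 or carry a GH9 symbol or a name with glycosyl hydrolase 9 or endoglucanase. The array holds 3439 features in all. CSLA01 was chosen by its difference between cytokinin and water on these same arrays, so that difference is a description here, with no test. The GH9 genes were chosen by name, with their values already known.

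Total RNA came from wild-type culture of ecotype Columbia 0, with 6 arrays of culture given cytokinin for 2 h and 6 arrays of culture given water, each group numbered 1 to 6. The sources used here do not give the cytokinin, its dose, the age of the culture or the duration of the water treatment. One label calls the control untreated. Nor do they say whether the arrays of a group are separate cultures, and p-values cover only the spread among these arrays, which could be technical. None of the 35 marker genes looked for, of mesophyll, xylem, phloem, root hair, guard cell, epidermis and seed, lies on any named feature, so the culture could not be checked against them.

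Cytokinin is a plant hormone that promotes cell division and shoot formation, and plant cell cultures are commonly grown with it. A dividing or growing plant cell both makes and remodels its wall. Mannan synthases of the cellulose synthase-like A family sit in Golgi membranes and join mannose, and in glucomannan also glucose, into the backbone of wall mannans. GH9 enzymes are endo-beta-1,4-glucanases, often called cellulases in plants. The family has membrane-anchored enzymes (subclass A, with KORRIGAN, which acts in cellulose synthesis), secreted enzymes with a catalytic domain (subclass B), and secreted enzymes with an added carbohydrate-binding module (subclass C).

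All 4 measured GH9 genes belong to subclass B. Of the 24 GH9 genes that the RefSeq table names by this rule, 4 have a feature of their own, 8 occur only on features that carry several genes, and 12 are not on a named feature and were not analysed here. KORRIGAN (GH9A1) is among these 12. GH9B11 and GH9B12 are neighbours in a row of 4 GH9 genes, GH9B9 to GH9B12, on chromosome 2, with 0 other protein-coding genes between them in TAIR10.1. GH9B16 stands next to GH9B17 and GH9B18 on chromosome 4. GH9B11, GH9B12 and GH9B16 also appear on features that the annotation gives to these neighbours as well, and whether their own features separate neighbouring genes was not tested.

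The deposited intensities summed to 3743 to 3810 on the cytokinin arrays and 3765 to 3875 on the water arrays. Median intensity was 0.674 to 0.693 on cytokinin arrays and 0.724 to 0.744 on water arrays, so the arrays were quantile-normalized, which also takes out that shift between the groups. Arrays with the same number deviated together from their group means, with correlations from 0.696 to 0.839 across features. Arrays numbered 1 and 2, 3 and 4, and 5 and 6 of one group also deviated together, at correlations of 0.4 to 0.807, and each group could therefore hold fewer than 6 independent samples.

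CSLA01 was higher with cytokinin than with water on every array. Its normalized intensity had a lowest, median and highest value of 0.46, 0.506 and 0.53 on the cytokinin arrays, against 0.354, 0.374 and 0.425 on the water arrays. The groups did not overlap, and the lowest cytokinin array lay above the highest water array. The means were 0.498 ± 0.0318 with cytokinin and 0.384 ± 0.0298 with water (SD, n = 6 each), a ratio of means of 1.3. Features whose groups did not overlap with cytokinin higher made up 1.49% of those tested. In a bulk culture, more cells of a type and more RNA per cell cannot be told apart.

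**Figure D1:**
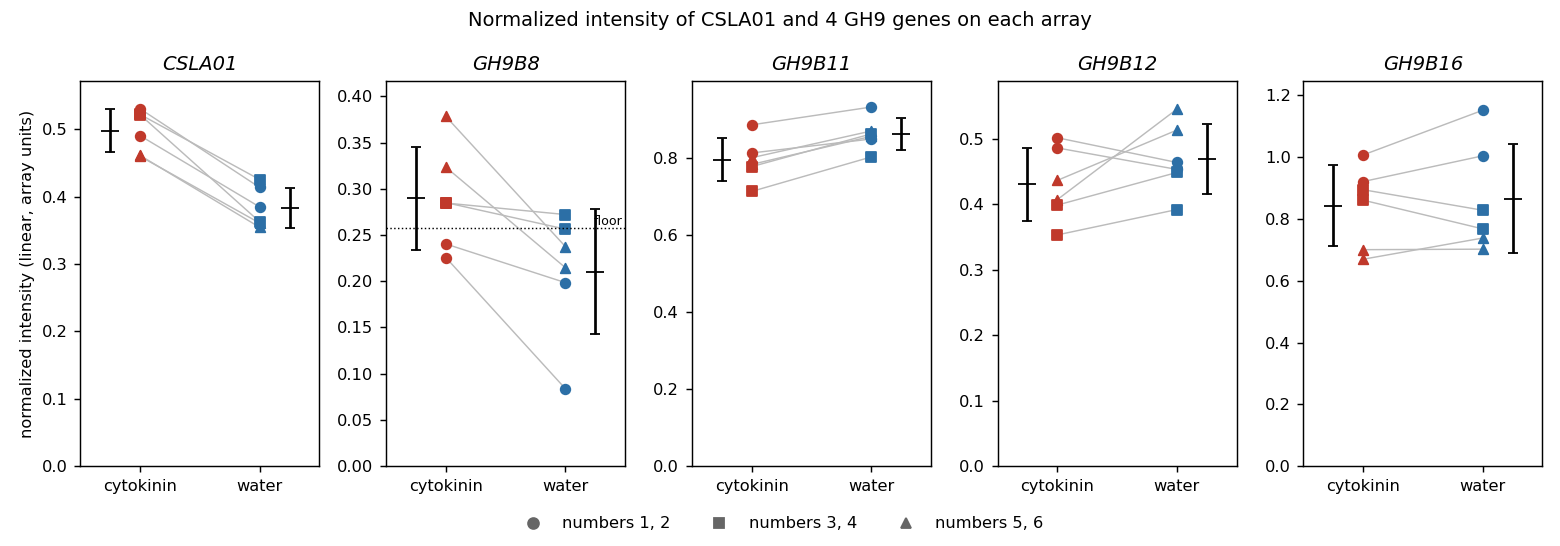
Normalized intensity (linear scale from 0, each panel with its own range) of the 5 genes on each array, cytokinin left and water right; symbols mark the replicate numbers, grey lines join arrays of the same number, and black bars give the mean and SD of 6 arrays. CSLA01 is the only one of the 5 whose cytokinin values, from 0.46 to 0.53, all lie above its water values, from 0.354 to 0.425.

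The log2 difference of CSLA01, cytokinin minus water, was 0.38, with an SD of 0.0777 between the 6 same-numbered pairs. Within same-numbered arrays it was 0.36, 0.35, 0.30, 0.52, 0.38 and 0.35 for numbers 1 to 6. All 6 pairs were above 0, as for 10.1% of the features tested, and 5 of them lay between 0.30 and 0.38. Averaged over numbers 1 and 2, 3 and 4, and 5 and 6, it was 0.35, 0.41 and 0.36. Of the 3091 features tested, 24 had a higher log2 change. On the values as deposited, CSLA01 had a lowest, median and highest intensity of 0.444, 0.487 and 0.513 with cytokinin, against 0.372, 0.387 and 0.437 with water. The groups did not overlap there either, which held for 1.04% of features with cytokinin higher, while the log2 difference was smaller, 0.27. Over all features tested, the median log2 change was 0.003 after normalization and -0.07 on the values as deposited.

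None of the 4 GH9 genes changed past the threshold, an adjusted p of 0.05 over all features in limma's moderated test. 1 of the 4 had a log2 change above 0 (GH9B8) and 3 had one below 0, with a median of -0.07. At an unadjusted p of 0.05 the count in limma was 0 of 4, against 9.54% of all features. With the replicate number as a block it was 2 of 4 (GH9B8 and GH9B11), against 28.6% of all features. At the adjusted threshold 48 of the 3091 features passed without a block (1.55%), 34 higher and 14 lower with cytokinin. Blocking on the number, 361 passed (11.7%), and the GH9 count was still 0.

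GH9B8 encodes a secreted enzyme of subclass B and gave a dim signal, around the floor below which values have no order. Its normalized intensity ran through a lowest, median and highest value of 0.226, 0.285 and 0.378 on cytokinin arrays, against 0.0837, 0.226 and 0.272 on water arrays. The groups overlap. The floor, 0.258, held 2 of the 6 cytokinin values and 5 of the 6 water values. In numbers 1 and 2 both arrays were at the floor and have no order, and in the other 4 pairs the cytokinin array was the brighter.

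With those values at the floor, the log2 difference of GH9B8 was 0.18 (95% interval -0.01 to 0.37, limma adjusted p = 0.551). With the block on replicate number, the interval was 0.02 to 0.34 and limma's adjusted p was 0.133. With the floor at the 5th percentile the log2 difference was 0.36 (limma adjusted p = 0.38), which gives an order to values below the floor of 0.258. On the values as deposited it was 0.14 (limma adjusted p = 0.455). With the floor of 0.258 the pair differences were 0 for numbers 1 and 2, both arrays being at the floor. They were 0.06 and 0.15 for numbers 3 and 4, and 0.55 and 0.33 for numbers 5 and 6. The brightest cytokinin arrays were thus those numbered 5 and 6.

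GH9B11, a neighbour of GH9B12, was slightly dimmer with cytokinin in every pair. Its normalized intensity had a lowest, median and highest value of 0.713, 0.792 and 0.886 on cytokinin arrays, against 0.803, 0.859 and 0.932 on water arrays. The groups overlap, yet the cytokinin array was the dimmer in 6 of 6 pairs, as it was for 8.06% of the features tested. Another 10.1% were brighter in 6 of 6, and every such feature reaches the smallest p of an exact sign-flip test over 6 pairs. The log2 difference was -0.12 (SE 0.06, 95% interval -0.24 to 0.01, limma adjusted p = 0.574). With the block on replicate number, the interval was -0.20 to -0.04 and limma's adjusted p was 0.0637. Its pair differences were the most even of the 4 GH9 genes, from -0.17 to -0.06.

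The direction of GH9B11 held on the values as deposited, where cytokinin was again lower in 6 of 6 pairs. That was so for 21.7% of all features on those values. There the log2 difference was -0.20. With the replicate block as well it passed limma's threshold (adjusted p = 0.00419), in a fit that called 22.4% of the features lower. GH9B12 passed in the same fit at a log2 difference of -0.23 (limma adjusted p = 0.0387). That setting was added after the data were seen, and it leaves in the shift of all features between the groups.

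GH9B12, the last gene of the row on chromosome 2, showed no common direction over the arrays after normalization. Its normalized intensity had a lowest, median and highest value of 0.353, 0.421 and 0.501 with cytokinin, against 0.392, 0.458 and 0.545 with water. The groups overlap along most of their range. The log2 difference was -0.13 (SE 0.10, 95% interval -0.34 to 0.09, limma adjusted p = 0.867). With the block on replicate number, the interval was -0.28 to 0.03 and limma's adjusted p was 0.257. The pair differences were 0.11 and 0.10 for numbers 1 and 2, -0.17 and -0.15 for numbers 3 and 4, and -0.42 and -0.23 for numbers 5 and 6. After normalization, arrays 1 and 2 were thus brighter with cytokinin and the other 4 pairs dimmer, and this difference between numbers was not tested. On the values as deposited, which keep the shift between the groups, cytokinin was lower in 5 of 6 pairs.

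GH9B16, from the group of 3 genes on chromosome 4, differed more between replicate numbers than between treatments. Its normalized intensity had a lowest, median and highest value of 0.67, 0.878 and 1.01 with cytokinin, against 0.702, 0.798 and 1.15 with water. The brightest 2 arrays of both groups were those numbered 1 and 2, and the dimmest those numbered 5 and 6. The log2 difference was -0.03 (SE 0.14, 95% interval -0.33 to 0.27, limma adjusted p = 0.999), and it turned above 0 under 7 other settings. With the replicate block the interval narrowed to -0.15 to 0.09, which leaves room for a fold of 0.899 to 1.07. The pair differences were -0.19 and -0.12 for numbers 1 and 2, 0.16 and 0.11 for numbers 3 and 4, and -0.14 and -0.003 for numbers 5 and 6.

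**Figure D2:**
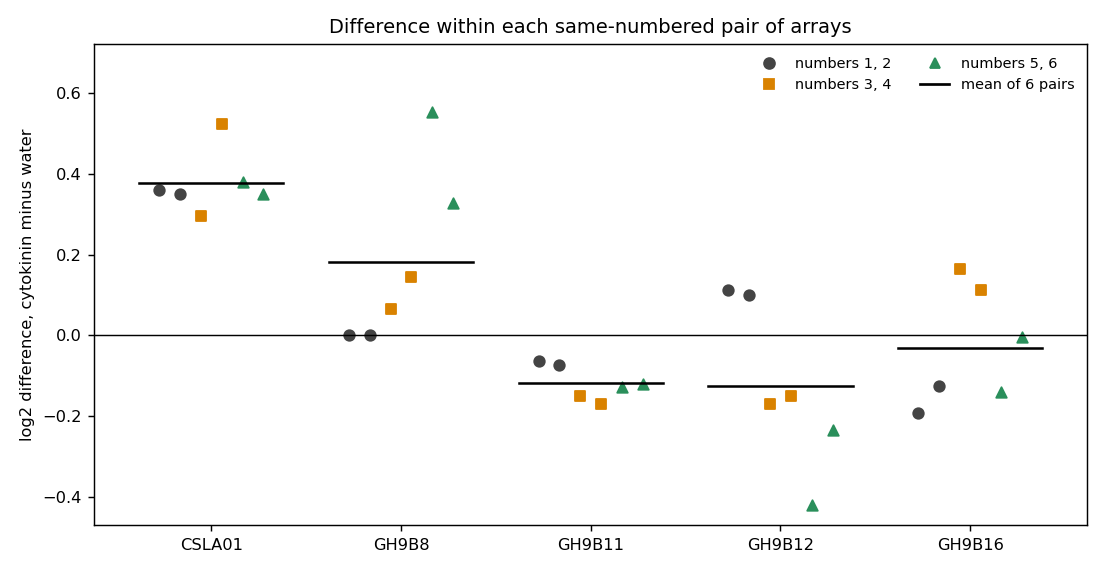
Log2 difference, cytokinin minus water, within each of the 6 same-numbered pairs of arrays for the 5 genes; symbols and colours mark the replicate numbers and black lines the mean of 6 pairs. CSLA01 lies above 0 in 6 pairs (0.30 to 0.52) and GH9B11 below 0 in 6 pairs (-0.17 to -0.06), while GH9B12 and GH9B16 have points on both sides of 0.

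**Figure D3:**
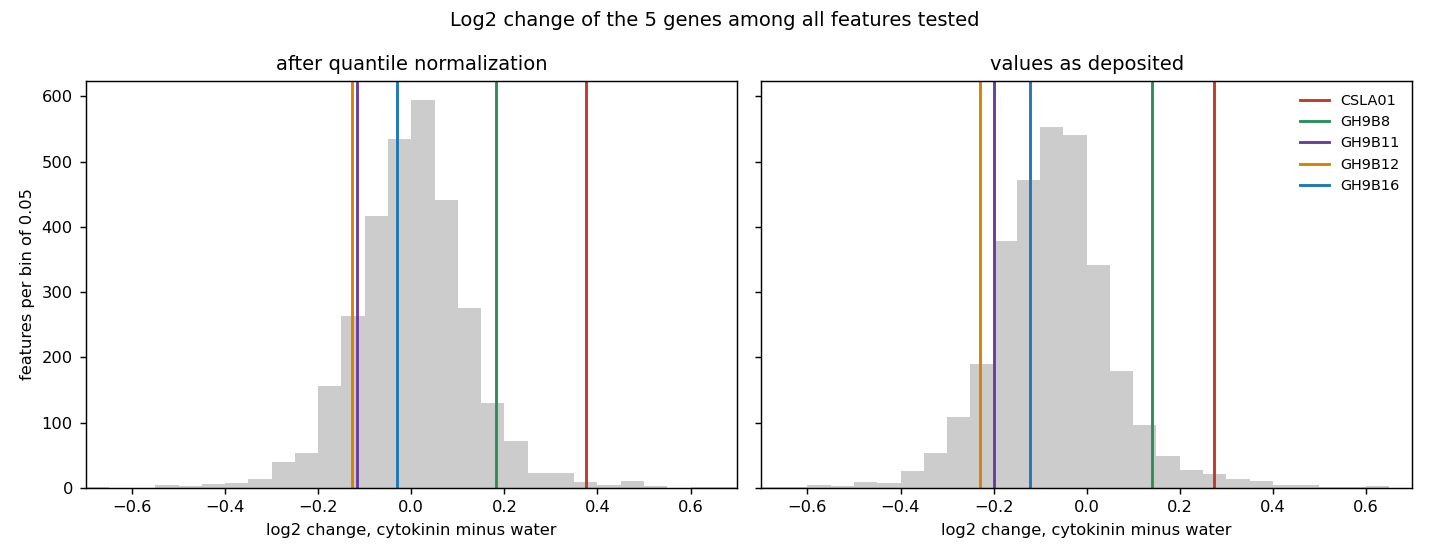
Number of features (vertical axis, bins of 0.05) by log2 change, cytokinin minus water, after quantile normalization (left) and on the values as deposited (right), with a vertical line for each of the 5 genes; 7 features in each panel lie outside the axis of -0.7 to 0.7. CSLA01, at 0.38 and 0.27, stands at the upper edge in both panels, and the distribution on the right is centred below 0.

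The 12 arrays of each gene can be split into what goes with treatment, with replicate number and with neither, as shares of the sum of squares of log2 intensity. Treatment held 80.2% of it for CSLA01, which was chosen for that difference, and 16.9% went with the replicate number. For the GH9 genes the share of treatment was 29.9% (GH9B8), 35.4% (GH9B11), 13.2% (GH9B12) and 0.436% (GH9B16). The share of replicate number was 33.8%, 60.8%, 58% and 91.5% in the same order. Over all features tested, the median shares were 4.98% for treatment and 76.8% for replicate number. GH9B16 therefore varied mainly as its numbered arrays did, as the features of this array do in general.

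**Figure D4:**
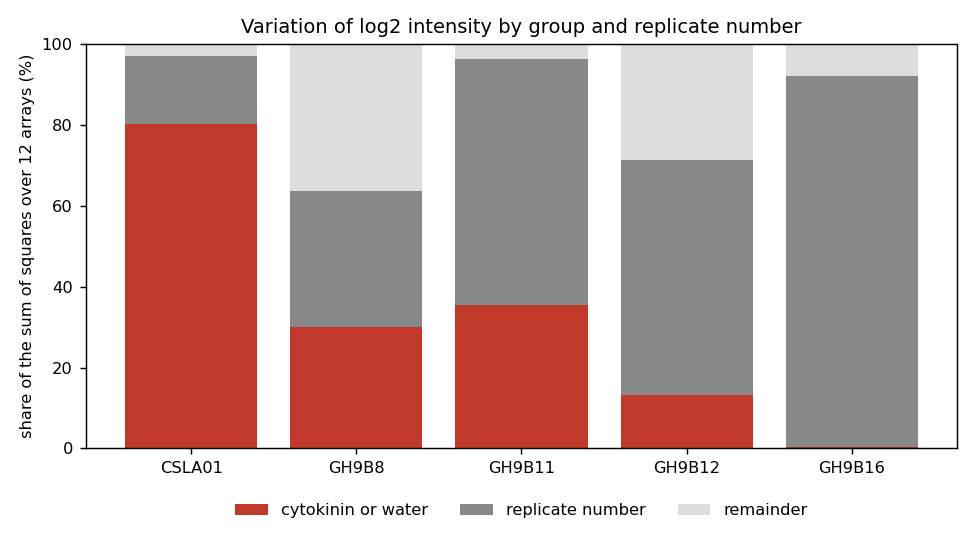
Share (%) of the sum of squares of log2 intensity over 12 arrays that goes with treatment (red), with replicate number (dark grey) and with neither (light grey), for each of the 5 genes. Treatment holds 80.2% for CSLA01 and 0.436% for GH9B16, where the replicate number holds 91.5%. GH9B8 has 2 cytokinin and 5 water values at the floor.

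The 7 features that carry several GH9 genes are not members, since their signal cannot be given to 1 gene, but they are given here for the genes next to the members. On chromosome 2, the features of the row GH9B9 to GH9B12 have the numbers 1466 (all 4 genes), 1478 (GH9B9 and GH9B10), 1490 (GH9B11) and 1502 (GH9B12), each 12 above the one before. No source says how feature numbers relate to positions on the array. Feature 1466 had mean normalized intensities of 0.665 ± 0.0349 with cytokinin and 0.708 ± 0.0633 with water (SD, n = 6 each), and feature 1478 of 0.48 ± 0.0666 with cytokinin and 0.548 ± 0.127 with water (SD, n = 6 each). Neither passed in limma without a block (adjusted p = 0.854 and 0.89) or with it (adjusted p = 0.314 and 0.0935).

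All 4 features of the row had a mean log2 difference below 0, from -0.17 to -0.09, but their pairs did not move alike after normalization. Feature 1466 was above 0 in numbers 3 and 4 only (0.11 and 0.08), and feature 1478 in number 4 only (0.08). GH9B12 was above 0 in numbers 1 and 2 only, and GH9B11 in no pair. On the values as deposited, cytokinin was lower in 6 of 6 pairs for GH9B11 and feature 1478. It was lower in 5 of 6 for GH9B12 and feature 1466. On those values 21.7% of all features were lower in 6 of 6. Across the 12 arrays, which share replicate numbers, log2 intensity of GH9B11 correlated with that of GH9B12 at 0.73, of feature 1466 at 0.63 and of feature 1478 at 0.41. GH9B12 correlated with features 1466 and 1478 at 0.44 and 0.63, and these features with each other at 0.42.

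On chromosome 4, feature 3160 (GH9B16, GH9B17 and GH9B18) correlated with GH9B16 at 0.83 over the 12 arrays. GH9B16 correlated as closely, also at 0.83, with feature 2884 of GH9B14 and GH9B15, which lie elsewhere on the chromosome. The means of feature 3160 were 0.59 ± 0.0798 with cytokinin and 0.605 ± 0.0861 with water (SD, n = 6 each), a log2 difference of -0.04 (limma adjusted p = 0.999). As for GH9B16, the pairs of feature 3160 numbered 3 and 4 were above 0 (0.07 and 0.25) and the other 4 below 0. Features 2890 (GH9B17, GH9B18 and AT3G42155) and 1540 (GH9C2 and GH9C3, of the subclass with a carbohydrate-binding module) stayed at the floor on all 12 arrays and were not tested.

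GH9B14 and GH9B15 share features 2019 and 2884, and the mean log2 differences of the 2 features had opposite signs. Feature 2884 had a lowest, median and highest intensity of 0.334, 0.636 and 1.21 with cytokinin, against 0.395, 0.8 and 1.34 with water. It was dimmer with cytokinin in 6 of 6 pairs (8.06% of all features were), at a log2 difference of -0.26. It did not pass in limma without a block (adjusted p = 0.979) and passed with the replicate block (adjusted p = 0.0114). It was 1 of 9 tested GH9 features to do so, a share near the 11.7% of all features, and on means of the number sets with the set as a block it did not pass (limma adjusted p = 0.107). Feature 2019 had 0.236, 0.361 and 0.566 with cytokinin, against 0.215, 0.285 and 0.533 with water. It was brighter with cytokinin in 5 of 6 pairs, at a log2 difference of 0.15 (limma adjusted p = 0.995 without a block and 0.117 with it). The floor held 1 of its 6 cytokinin values and 2 of its 6 water values. On the values as deposited, feature 2019 was higher with cytokinin in only 3 of 6 pairs, at a log2 difference of 0.08. The log2 intensities of features 2019 and 2884 correlated at -0.71 over the 12 arrays.

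**Figure D5:**
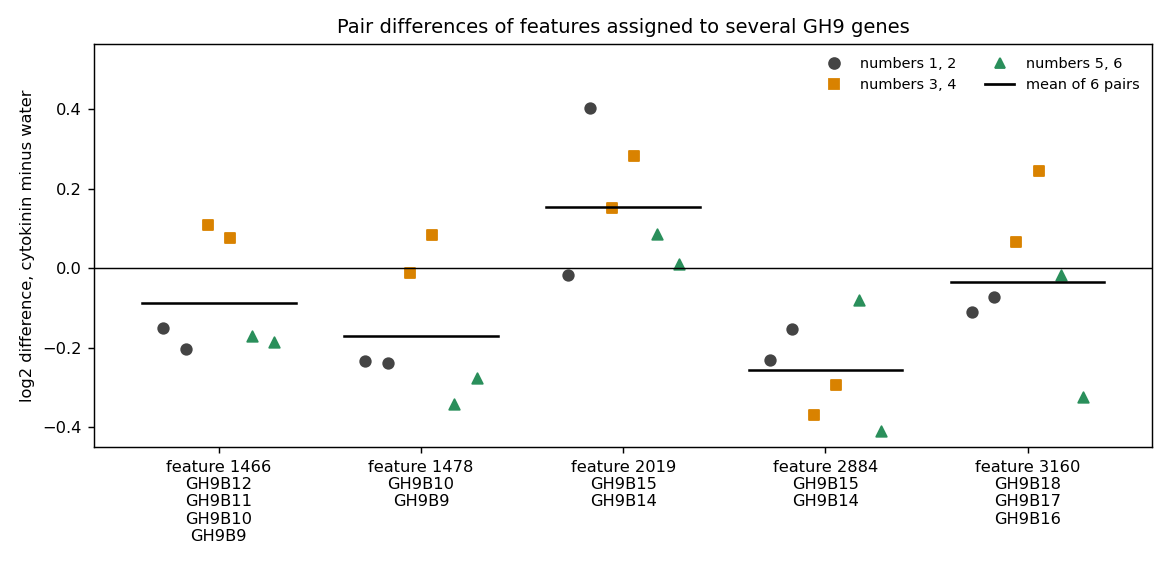
Log2 difference, cytokinin minus water, within each of the 6 same-numbered pairs for the 5 tested features that carry several GH9 genes, with their genes below; symbols mark the replicate numbers and black lines the mean. Feature 2884 lies below 0 in 6 pairs and feature 2019, with the same genes, above 0 in 5. On the values as deposited, feature 2019 was higher with cytokinin in 3 of 6 pairs.

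The genes most like each member were sought among 532 other features with 1 gene name that were above the floor on all arrays, by Pearson correlation of log2 intensity over the 12 arrays. For CSLA01 these were AT2G28660 (0.94), AT4G29890 (0.94) and AT3G52070 (0.92). Their log2 differences were 0.48, 0.49 and 0.29, higher with cytokinin. That direction follows from the search, since treatment holds 80.2% of the sum of squares of CSLA01. After each group's mean was taken off, other genes came first, AT3G56500 (0.91), AT1G08050 (0.90) and AT5G47890 (0.89), with log2 differences of -0.04, -0.07 and 0.10.

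For GH9B8 the most alike were AT1G72640 (0.90), AT5G42070 (0.87) and AT5G58330, the NADP-dependent malate dehydrogenase (0.87), but 7 of the 12 values of GH9B8 are the floor itself, so these correlations rest on the other 5 arrays. For GH9B11 they were AT5G02850 (0.77), AT5G61470 (0.77) and AT3G19120 (0.73), and for GH9B12 AT2G44760 (0.86), AT1G73740 (0.74) and AT2G30320 (0.74). The feature of AT2G44760 has a number only 6 away from that of GH9B12. GH9B16 had the closest partners, AT2G35450 (0.96), AT4G33480 (0.95) and MAMI, a membrane-associated mannitol-induced gene (0.95). All of these correlations run over the same 12 arrays with their shared replicate numbers and are descriptions.

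The search made here found no other wall genes to set beside these 5. Genes of mannan and cellulose synthesis, wall glycosyltransferases, wall hydrolases and loosening proteins, and structural wall proteins were sought by symbol and synonym. Of these, 0 were found with a feature of their own. Genes on shared features numbered 5 for cellulose synthesis and 6 for hydrolases and loosening proteins, besides GH9, and they were not tested. No other mannan synthase of the CSLA family was found on a named feature, so CSLA01 alone stands for mannan synthesis among the features searched. The search misses genes whose symbol or synonyms lack the words sought. It had no gene descriptions to read, so a count of 0 does not show that the array lacks such genes. A further 1877 features of the array have no gene name and could not be searched.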

How the data were processed

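Per the labels, total RNA of 12 samples was hybridized to arrays. The authors' deposited values are intensities on a linear scale, and no source used here gives their scaling or background correction. Genes were named by the platform annotation and brought up to date by gene identifier with the RefSeq table of TAIR10.1, which held 690 of 692 single-gene features; it has no descriptions, so gene lists were sought in symbols and synonyms. No coordinates are printed, since the sources name no build.

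Intensities were quantile-normalized, raised to a floor of 0.258 (10th percentile of all values above 0) where lower, and put on the log2 scale. This left out 348 features that never exceeded the floor, and 3091 were tested with limma 3.58.1 in R 4.3.3 (two-sided, Benjamini-Hochberg over all features, threshold 0.05). Same-numbered arrays deviated together (correlations of 0.696 to 0.839, and 12 of 12 arrays closest to their own number in the other group). They were therefore treated as pairs in the pair differences and in the fits with a replicate block. The labels state no pairing, so this rests on the data. Fits without a block leave the pairing out of their intervals and p-values. Correlations across features do not rest on independent replicates. The fit was tested on simulated data with independent noise on each array, which does not cover the shared deviations of same-numbered arrays. Plots were drawn with matplotlib 3.10.9. The members, lists, settings and sets of replicate numbers were chosen with earlier results of these data known. All 5 members are named, with the 3 genes most like each (for CSLA01 also after group means were taken off). The number of arrays limits the precision.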

Additional observations from a re-analysis of the deposited data

Results flagged for a closer look

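Among 34 groups of 6 values, the intensities of each group and the pair differences of the 5 genes and of the shared GH9 features, 1 held a value far from the others. It was the log2 pair difference of CSLA01 in number 4, 0.52, against 0.38 for the next highest. In that pair the intensity was 0.522 with cytokinin and 0.363 with water, and the water array numbered 3 had 0.425. About 1 in 20 such groups is picked out by chance.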

How the results depend on the processing

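Results were recomputed under 34 other settings, 32 planned and 2 (the replicate block on values as deposited or median-scaled) added after seeing the data. CSLA01, chosen by this contrast, stayed above 0 in all 34, with log2 changes from 0.18 to 0.41. Its groups did not overlap, so leaving out, weighting, blocking or averaging arrays could not have turned its sign. CSLA01 moved by more than the SD of its pairs on the values as deposited, with or without the replicate block (0.27 each), and with log2 of value plus 0.5 (0.18). Without the arrays numbered 1 and 2, 3 and 4, or 5 and 6 it was 0.39, 0.36 and 0.38. GH9B8 stayed above 0 and GH9B11 and GH9B12 below 0 in every setting that gave them a value. Omitting single arrays gave 0.35 to 0.41 for CSLA01, 0.11 to 0.22 for GH9B8, -0.15 to -0.09 for GH9B11, -0.18 to -0.07 for GH9B12 and -0.0867 to 0.0561 for GH9B16, 32 to 43 features past the threshold and 0 GH9 genes. GH9B16 turned above 0 with array weights (0.0598), without the arrays numbered 1 and 2 with or without the replicate block (0.033 each), without cytokinin replicate 5 (0.0321) or 6 (0.0191) and without water replicate 1 (0.0561) or 2 (0.0165); the cause was not tested.

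The replicate block left the 5 log2 changes as they were and changed no GH9 call. On values as deposited with the block, GH9B11 (-0.20) and GH9B12 (-0.23) passed (GH9 count 2 of 4). That fit called 22.4% of features lower. GH9B11 (-0.12) had two-sided p = 0.0433 in the exact permutation test over 12 arrays. Its exact sign-flip test over 6 pairs gave two-sided p = 0.03125, the smallest possible. Neither is adjusted for the 4 genes or covers arrays deviating together. For GH9B8, GH9B12 and GH9B16 the permutation test gave p = 0.0606, 0.24 and 0.838, and the sign-flip test p = 0.125, 0.188 and 0.594.

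The 48 features past the threshold became 85 with median scaling, 76 with array weights, 361 with the replicate block, 478 with it and the running median over 51 neighbouring feature numbers removed, 477 with it after median scaling and 837 with it on the values as deposited. Without the arrays numbered 1 and 2, 3 and 4, or 5 and 6 the block gave 111, 221 and 146, and no block gave 7, 7 and 42. Means of the number sets gave 41 with the set as a block and 0 without a block (limma, 3 means a group, 99 at an unadjusted p of 0.05), so most features gained by the replicate block did not pass there. Cytokinin-higher features were 34 of 48 calls after quantile normalization and 18 of 46 on the values as deposited. The lists of other wall genes were not tested, since the search found none with a feature of its own. GH9B8 has no value with a floor at the 20th percentile or where every array must exceed the floor.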
